A study of Mus musculus with 4 samples.

Results

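The 8 homeobox genes Dlx1 to Dlx6, Msx1 and Msx2 were examined for Ring1b occupancy in C3H10T1/2 cells, a mesenchymal progenitor line derived from C3H mouse embryos. Members were the regions of the deposited table that overlapped 1 of 5 windows set on the mouse build mm9: chromosome 6 from 6.77 to 6.88 Mb for Dlx5 and Dlx6, chromosome 2 from 71.32 to 71.43 Mb for Dlx1 and Dlx2, chromosome 11 from 94.93 to 95.04 Mb for Dlx3 and Dlx4, chromosome 5 from 38.17 to 38.26 Mb for Msx1 and chromosome 13 from 53.51 to 53.61 Mb for Msx2. Of the 6371 regions in the table, 2 were members. The Dlx5 and Dlx6 window held 1 region and the Dlx1 and Dlx2 window held 1. The windows of Dlx3 and Dlx4, of Msx1 and of Msx2 held 0 regions.

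Occupancy was measured by chromatin immunoprecipitation with a Ring1b antibody followed by sequencing (ChIP-seq). All cells stably expressed histone H3.3 with a FLAG-HA tag, in 1 group as the wild-type protein (WT) and in the other with the lysine-to-methionine substitution K36M; whether either line was a clone or a pool was not stated in the labels. Each group had 1 Ring1b library and 1 input library, and values of the 2 Ring1b libraries were used. The table is restricted to WT-peak regions, and a site bound in K36M cells alone would not appear in it. This choice of regions favours values that are lower in K36M. Values were treated as reads per 1000000 reads (RPM), not divided by width unless given per kb. It was assumed that 1 read was worth 0.0335 RPM in WT and 0.0317 RPM in K36M. With 1 library per group no test of the difference was possible. All intervals are 95% counting intervals, which cover counting error only and not the spread between cultures. Summed over all regions, levels were 36029.6 RPM in WT and 22840.7 RPM in K36M. Whether the 2 libraries differ in ChIP enrichment was not tested. With 1 library per group, such a difference cannot be told apart from a change in Ring1b occupancy.

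Ring1b belongs to the Polycomb complex PRC1, where it attaches ubiquitin; the complex modifies histone H2A at silent developmental genes, many of which have promoters in CpG-rich DNA. The H3.3K36M protein lacks the lysine that carries H3K36 methylation and blocks the enzymes that methylate it. Dlx genes are the vertebrate relatives of Drosophila Distal-less and lie as pairs of genes transcribed towards each other. Dlx5 and Dlx6 specify the lower jaw, and Dlx5 also acts in bone-forming cells. Dlx1 and Dlx2 act in the upper jaw and in forebrain interneurons, Dlx3 in skin appendages, teeth and placenta, and Msx1 and Msx2 act downstream of BMP signals in teeth, palate and skull.

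The table names no genes, and the gene and promoter tables used here are on another assembly, GRCm38.p6, whose positions cannot be compared with those of mm9. A region can therefore be placed in a window but not on a start site, exon or intron. In the order of start positions on GRCm38.p6, Dlx1 is followed by its antisense gene Dlx1as and then by Dlx2. Dlx6 comes after the noncoding gene Dlx6os1 and before the noncoding gene Dlx6os2, with Dlx5 next. The order is by start position alone, and genes next to each other in it can overlap. Reads in a member region are not assigned to any 1 of these genes.

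Promoter sequences are shown because CpG-rich promoters are the usual sites of PRC1. Whether a listed region covers any of these promoters was not determined. RefSeq promoters on GRCm38.p6 matched 4 of the 8 genes, namely Dlx1, Dlx2, Msx1 and Msx2. The 250 bases before the gene start are printed 5′ to 3′ on the strand of the gene, with each CG in capitals. They lie at chr2:71529195-71529444 on the plus strand (Dlx1), and on the minus strand at chr2:71546755-71547004 (Dlx2), chr5:37824586-37824835 (Msx1) and chr13:53472781-53473030 (Msx2).
Dlx1: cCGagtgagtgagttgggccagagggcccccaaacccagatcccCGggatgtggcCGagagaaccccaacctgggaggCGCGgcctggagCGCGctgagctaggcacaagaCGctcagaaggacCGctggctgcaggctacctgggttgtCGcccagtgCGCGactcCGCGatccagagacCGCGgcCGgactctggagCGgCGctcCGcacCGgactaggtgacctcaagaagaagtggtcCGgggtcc
Dlx2: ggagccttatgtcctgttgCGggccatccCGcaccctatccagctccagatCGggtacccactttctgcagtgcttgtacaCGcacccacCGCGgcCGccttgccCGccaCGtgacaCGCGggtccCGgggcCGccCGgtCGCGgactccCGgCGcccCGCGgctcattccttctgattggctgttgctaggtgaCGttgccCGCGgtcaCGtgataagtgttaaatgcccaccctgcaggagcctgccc
Msx1: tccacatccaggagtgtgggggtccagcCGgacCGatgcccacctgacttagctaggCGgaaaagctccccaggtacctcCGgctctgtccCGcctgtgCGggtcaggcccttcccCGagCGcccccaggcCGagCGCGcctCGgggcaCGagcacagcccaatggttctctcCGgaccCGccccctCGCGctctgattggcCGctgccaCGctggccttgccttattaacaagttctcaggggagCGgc
Msx2: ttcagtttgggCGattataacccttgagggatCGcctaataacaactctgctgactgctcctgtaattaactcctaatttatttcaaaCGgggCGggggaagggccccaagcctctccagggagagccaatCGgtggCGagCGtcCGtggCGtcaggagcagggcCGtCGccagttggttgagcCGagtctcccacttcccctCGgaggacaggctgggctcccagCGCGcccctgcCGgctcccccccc

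The motif CG, which reads the same on both strands, occurred 22 times in the Dlx1 promoter and 24 times in the Dlx2 promoter, whose window held a Ring1b region. It occurred 20 times in the Msx1 promoter and 16 times in the Msx2 promoter, whose windows held none. At least 16 occurrences were found in 25.4% of the 32851 RefSeq promoters of the same length, whose median was 6, and 92.1% held at least 1. The cutoff of 16 is the lowest of the 4 counts, so all 4 promoters reach it by construction. The share of RefSeq promoters with fewer occurrences was 85.2% (Dlx1), 88.0% (Dlx2), 82.1% (Msx1) and 74.6% (Msx2). GC contents were 68.0% (Dlx1), 66.4% (Dlx2), 68.0% (Msx1) and 61.6% (Msx2), against a median of 52.4%. Both counts for the Dlx pair were above both counts for the Msx genes, a description of 4 sequences with no test. Dlx1 and Dlx2 share 1 window and 1 region, and the other Dlx genes had no matched promoter. A link between CG count and Ring1b was not tested.

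The region in the Dlx5 and Dlx6 window spanned chr6:6774201-6783600 (mm9, 9400 bp). Its WT level was 9.11 RPM and its K36M level 5.01 RPM, from 272 and 158 reads. The level was thus 1.82-fold lower in the K36M library (interval 1.49 to 2.23), or 45.0% lower. The region lay at the lower end of its window, 4.2 kb from the lower border, and the other 96.4 kb up to the upper border held no listed region.

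The region in the Dlx1 and Dlx2 window spanned chr2:71373201-71383600 (mm9, 10400 bp). The WT library gave 9.75 RPM and the K36M library 6.37 RPM, from 291 and 201 reads. The level was 1.53-fold lower in K36M (interval 1.27 to 1.84), or 34.6% lower. This region lay near the middle of its window, with its centre 3.4 kb from the centre of the window.

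Both regions were lower in K36M by more than counting error. Neither value reached 2-fold, but the Dlx5 and Dlx6 interval (1.49 to 2.23) includes 2. Levels were not corrected for input, and these folds and the counts below hold for uncorrected values only. A counting interval wholly below 1 was found at 2 of the 2 member regions and at 65.1% of all regions. At least 1.5-fold lower values were found at 2 of the 2 member regions and at 54.4% of all regions. At least 2-fold lower values were found at 0 of 2, against 35.0% of all regions. For regions over 8 kb and up to 16 kb wide, the width class of both members (961 regions), these shares were 71.9%, 47.9% and 20.8%. With 2 members, such counts do not set the Dlx regions apart from the background.

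**Figure D1:**
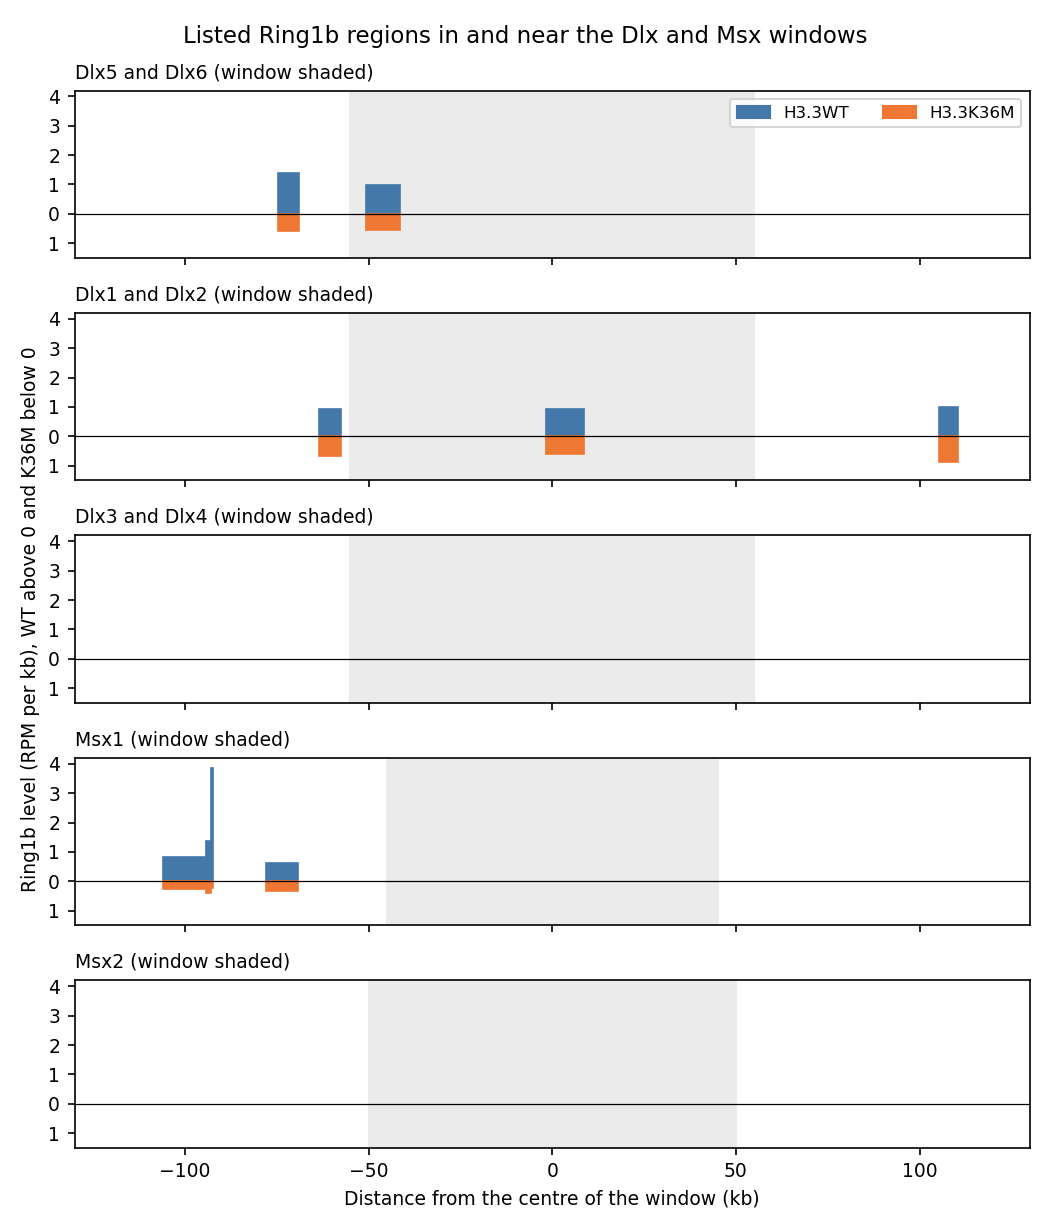
Ring1b level in RPM per kb of each listed region within the plotted range around each window, with bar widths to scale and windows shaded. The WT library is drawn above 0 in blue and the K36M library below 0 in orange. Regions farther out are not drawn, among them 1 that lies 446.4 kb below the Dlx5 and Dlx6 window and 3 below the Msx2 window. The Dlx5 and Dlx6 region sits at the lower end of its window and the Dlx1 and Dlx2 region near the middle, and the windows of Dlx3 and Dlx4, of Msx1 and of Msx2 are empty.

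Per unit length the members had almost the same WT level. The Dlx5 and Dlx6 region had 0.969 RPM per kb in WT and the Dlx1 and Dlx2 region 0.937 RPM per kb. In K36M they held 0.533 and 0.613 RPM per kb. Both lay above the middle of their width class and below that of all widths: 68.3% (Dlx5 and Dlx6) and 65.7% (Dlx1 and Dlx2) of the regions in their width class had a lower WT level per kb, against 24.1% and 22.3% of all regions. The class median was 0.823 RPM per kb in WT (quartiles 0.675 and 1.05) and 0.551 in K36M. In the K36M library 46.4% of the class lay below the Dlx5 and Dlx6 region and 61.2% below the Dlx1 and Dlx2 region. In K36M the Dlx5 and Dlx6 region thus stood close to the class median.

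On the log2((K36M + 0.1)/(WT + 0.1)) scale, with a pseudocount of 0.1 RPM, the change was -0.85 at the Dlx5 and Dlx6 region and -0.61 at the Dlx1 and Dlx2 region, a median of -0.73. The median was -0.65 over all 6371 regions and -0.56 over the width class, whose quartiles were -0.91 and -0.23. Relative to the median of all regions the Dlx5 and Dlx6 region stood at -0.20 and the Dlx1 and Dlx2 region at 0.05. A lower log2 ratio was found at 40.2% of all regions and 27.7% of the class for Dlx5 and Dlx6, and at 52.2% of all regions and 45.3% of the class for Dlx1 and Dlx2. Both values were inside the middle range of the table.

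**Figure D2:**
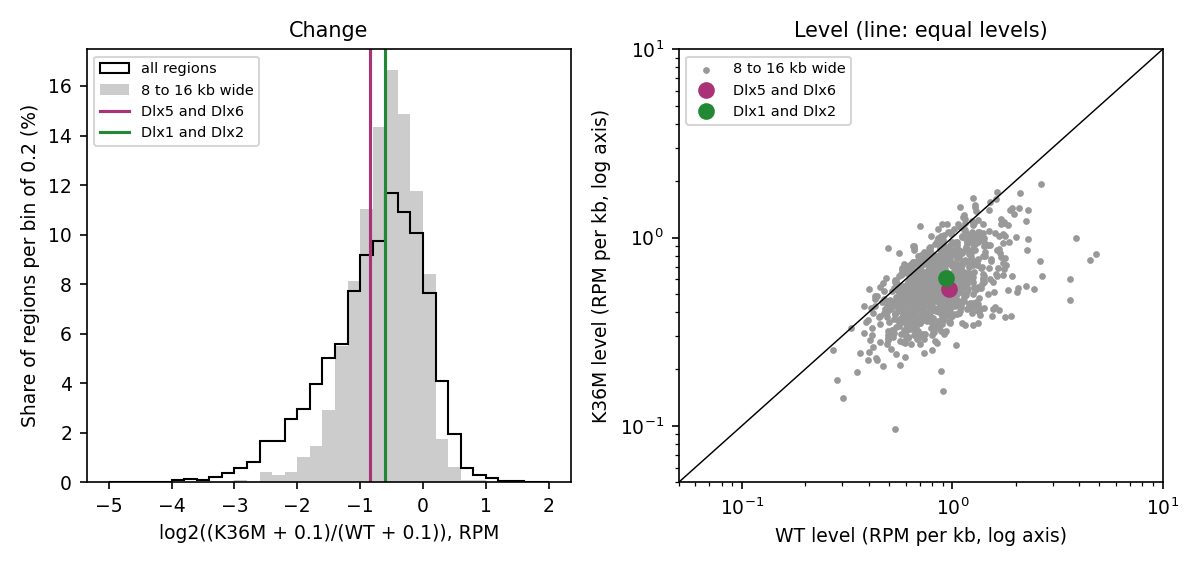
Left, share of regions in bins of the log2 ratio for all 6371 regions (line) and for the 961 regions over 8 kb and up to 16 kb wide (grey), with the member regions as vertical lines at -0.85 (Dlx5 and Dlx6) and -0.61 (Dlx1 and Dlx2). Right, K36M against WT level per kb on log axes for the width class, with both members below the line of equal levels and inside the main cloud.

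The Dlx5 and Dlx6 region had the lower ratio of the pair, 0.550 against 0.654, but the order was within counting error. The first ratio divided by the second was 0.841, with an exact conditional interval of 0.639 to 1.11 that includes 1.

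The regions nearest to the windows differed between the Dlx pairs. Just outside the Dlx5 and Dlx6 window, 13.8 kb below its lower border, the region chr6:6750401-6756200 had a WT level of 8.11 RPM and a K36M level of 3.46 RPM, 2.35-fold lower (interval 1.86 to 2.97). A further region 446.4 kb below the border was 3.23-fold lower (interval 2.16 to 4.95), and no region was listed within 500 kb above the window. Summed, these 2 outside regions stood at a ratio of 0.392 (interval 0.320 to 0.478). The ratio of the member region was 1.40 times as high as that of this sum (interval 1.05 to 1.87). Against the nearer outside region alone it was 1.29 times as high, with an interval of 0.946 to 1.76 that includes 1. The outside regions were narrower (5800 and 1800 bp) than the member region (9400 bp), and these comparisons were not matched for width.

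Near Dlx1 and Dlx2, a region 2.4 kb below the window at chr2:71311401-71317600 had a WT level of 5.73 RPM and a K36M level of 4.25 RPM, 1.35-fold lower (interval 1.07 to 1.70). The region 50.4 kb above the window, chr2:71480401-71485600, held 5.23 and 4.56 RPM, and its interval of 0.692 to 1.10 for the ratio includes 1. Their sum had a ratio of 0.804 (interval 0.683 to 0.947). The member region had 0.813 times the ratio of this sum, with an interval of 0.634 to 1.04 that includes 1. In this stretch of chromosome 2 the ratios of the member and its neighbours could not be told apart beyond counting error.

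With each window widened by 50 kb on both sides, each Dlx pair gained 1 region. The Dlx5 and Dlx6 stretch then came to 17.2 RPM (WT) and 8.46 RPM (K36M), with a ratio of 0.492 (interval 0.422 to 0.571). The Dlx1 and Dlx2 stretch summed to 15.5 and 10.6 RPM, a ratio of 0.686 (interval 0.594 to 0.791). The first ratio divided by the second was then 0.717, with an interval of 0.581 to 0.883 below 1. The difference between the pairs thus exceeded counting error only with the region outside each window included, a comparison of 2 libraries that was chosen after the values were seen.

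**Figure D3:**
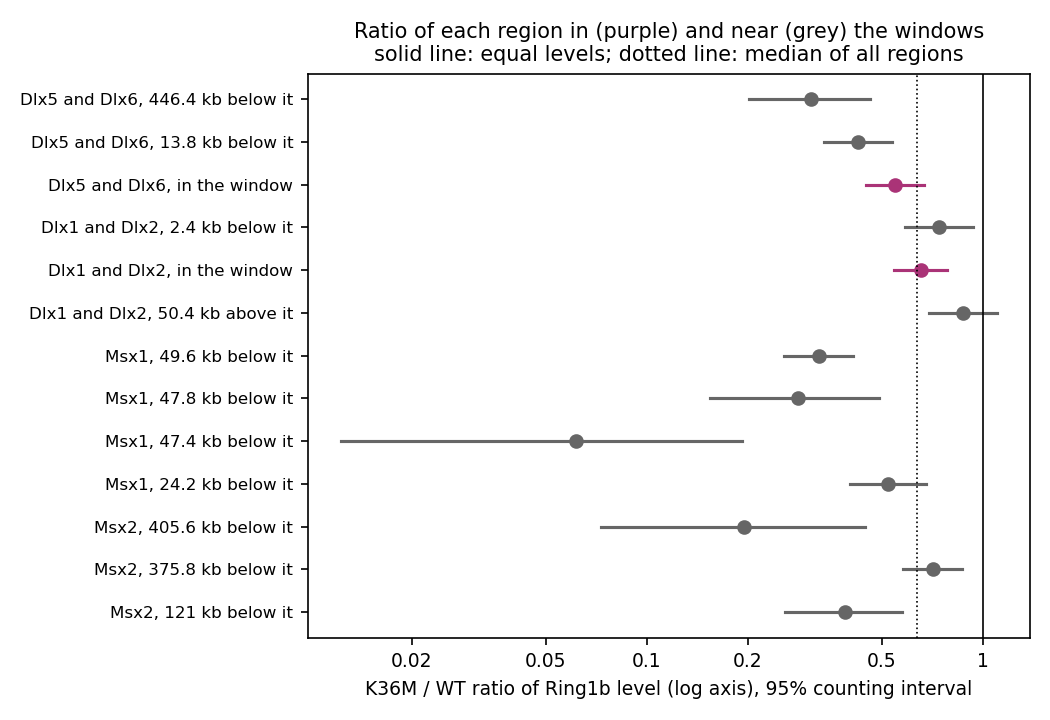
Ratio of the K36M to the WT level on a log axis, with its 95% counting interval, for the 2 member regions (purple) and the 11 listed regions outside the windows and within 500 kb of them (grey). The solid line marks equal levels and the dotted line the median of all regions; the 3 points of the Dlx1 and Dlx2 stretch lie to the right of the 3 of the Dlx5 and Dlx6 stretch.

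The Msx1 window held no region, but 4 were listed on its lower side between 24.2 and 49.6 kb from its border. The nearest, chr5:38137001-38145800, had a WT level of 5.63 RPM and a K36M level of 2.95 RPM, 1.91-fold lower (interval 1.47 to 2.49). Farther out, chr5:38109001-38120400 held 9.61 and 3.14 RPM, 3.06-fold lower (interval 2.43 to 3.89). Beside it a 1400-bp region was 3.54-fold lower, and a 400-bp region that touches the latter held 46 WT and 3 K36M reads, a ratio of 0.0617 (interval 0.0123 to 0.192). Together the 4 regions came to 18.7 RPM (WT) and 6.72 RPM (K36M), with a ratio of 0.360 (interval 0.305 to 0.422), and all 4 intervals lay below 1. These regions were not members, and which gene they belong to was not determined.

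Around Msx2 the nearest listed region lay 121.0 kb below the window, at chr13:53386001-53389000, with a WT level of 3.02 RPM and a K36M level of 1.17 RPM (2.57-fold lower, interval 1.73 to 3.88). Most reads near this window were in chr13:53125201-53134200, 375.8 kb below it, which was 1.41-fold lower (7.81 against 5.55 RPM, interval 1.15 to 1.72) and stood 0.17 above the median of all regions on the log2 scale. A 400-bp region 405.6 kb below the window was 5.13-fold lower (interval 2.24 to 13.7), from 34 and 7 reads. The 3 regions together had a ratio of 0.580 (interval 0.488 to 0.689). On the other side the next region was 716.0 kb away. For Dlx3 and Dlx4 the distances were larger, 4001.4 kb below the window and 737.2 kb above it, so that no region was listed within 500 kb of it.

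An empty window means that no region associated with a WT peak was listed there, and levels in it were not analysed here. Of 25961 consecutive bins of 100 kb along the chromosomes, 13.3% held part of a listed region. The windows are 90 to 110 kb wide, and 2 of the 5 held one. For Dlx3, Dlx4, Msx1 and Msx2 no WT level, no K36M level and no change can be given.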

How the data were processed

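Ring1b ChIP-seq was analysed in 2 libraries, 1 per form of H3.3; input values were not used here. The submitters' processing notes name Bowtie 1.0.0 and build mm9; how peaks were called and reads counted is not given in the sources used here. Deposited columns are headed RPKM. The step of each library was the largest common divisor of its values, 0.0335 in WT and 0.0317 in K36M. All values are whole multiples of it by construction (100% of values, tolerance 0.01 reads), so this share is no check. Since 1 step per library served every width, values are treated as RPM scaled by the authors. That 1 step equals 1 read was assumed. Dividing by the step gave 1075510 (WT) and 720528 (K36M) reads over all regions. If duplicate reads were kept, counting intervals are too narrow.

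Regions overlapping a window by any base were members, and all of them are named; starts are printed counted from 1. Ratios have exact Clopper-Pearson intervals given the total reads, and ratios of ratios the exact conditional interval of the odds ratio (SciPy 1.17.1, Python 3.11.15). Both were tested on simulated reads. The rule for naming genes was the 8 genes by their windows, with further BMP, endothelin and bone genes only if an annotation of mm9 was at hand; those were not used. Members and lists were chosen with earlier results of these data known. Alternatives covered the pseudocount, low values, centring, taking off a low level per kb, window borders and merging. The cell type label was not checked, since the table holds no expression.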

Additional observations from a re-analysis of the deposited data

How the results depend on the processing

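No paired analysis was possible because each form of H3.3 has 1 library. Centring on the median of all regions set the median log2 ratio of the members from -0.73 to -0.075, the ratio of the Dlx5 and Dlx6 region from 0.550 to 0.864 and that of the Dlx1 and Dlx2 region from 0.654 to 1.03, so that the latter turned from lower to slightly higher, and it left 0 of 2 members at least 1.5-fold lower. This follows from its construction. Widening the windows by 50 kb, for this result an alternative chosen after seeing the data, moved the ratio of the pairs' ratios. It went from 0.841 (interval 0.639 to 1.11) to 0.717 (interval 0.581 to 0.883), so that its interval no longer included 1. This followed from the 1 region added to each pair. The ratio of the added region was 0.426 (interval 0.337 to 0.537) for Dlx5 and Dlx6. For Dlx1 and Dlx2 it was 0.742 (interval 0.587 to 0.935). Why the added regions differed was not tested. Under the other settings run, the locus ratios stayed within their reported counting intervals, the counts did not change, and the median log2 ratio lay between -0.74 and -0.65, within the -0.92 to -0.54 interval of the summed reads of both regions. In 1 setting the 1st percentile of level per kb over the listed regions was taken off (0.434 RPM per kb for WT, 0.256 for K36M). The ratios were then 0.518 (Dlx5 and Dlx6) and 0.710 (Dlx1 and Dlx2). This percentile comes from regions associated with WT peaks and is not a measured background. How the ratios depend on background was therefore not tested. Leaving out the highest region of a locus gave no value, since each window held 1. Counting intervals rest on 158 to 291 reads per region and library, and with 1 library per form of H3.3 the spread between cultures is unknown.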
